A study of Mus musculus with 16 samples.

Results

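Gzma, Gzmk, Gzmm, Klrg1 and Ccl5 are genes of cytotoxic lymphocytes, and here they were followed across cell types, tissues, Aire genotypes and treatments in single cells of mouse MC38 tumors and spleens. They are 5 of 24469 gene symbols counted, and each of the 5 has 1 row in the count tables. They were chosen by name with measured values known: their levels by tissue, by genotype, by treatment and in CD8 T against NK cells had already been seen in these libraries. Their levels and differences are therefore descriptions, and none was tested.

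Cytotoxic T cells and natural killer (NK) cells kill by releasing granules onto a target, where perforin opens the way and granzymes, a family of serine proteases, cut proteins inside it. Gzma encodes granzyme A, which cuts after basic residues, Gzmk encodes granzyme K, a close relative with a like preference that is often found in effector memory cells, and Gzmm encodes granzyme M, a distinct protease of NK and T cells. Klrg1 encodes an inhibitory lectin-like receptor that binds cadherins and marks effector T cells late in differentiation, NK cells and some tissue regulatory T cells, and Ccl5 encodes a chemokine that effector and memory T cells store and secrete and that draws other leukocytes.

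The mice were C57BL/6 animals, either Aire+/+ or Aire-/-; Aire drives the display of tissue-restricted self proteins in the thymus, and the deletion was present in all cells of the body. MC38, a mouse colon carcinoma line, was grown in them, they were given anti-PD1 or an isotype control antibody, and tumors and spleens were taken on day 19. Sorting each tissue for CD45+ (all leukocytes) or CD8+ cells gave 16 libraries of droplet single-cell RNA counts, 1 for each of the 4 conditions in each tissue and sort. With 1 library per group and pooled animals, the spread between mice was not measured. The CD45 and CD8 sorts of a condition may come from the same mice and are not replicates. The labels used here give no age.

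The libraries held 1856 to 2944 cells after filtering and 10927391 to 38930017 unique molecular identifiers (UMIs, each a counted RNA molecule). Cells of the tumor were deeper, with median UMIs per cell of 8883 to 12252 in a library, than cells of the spleen, with 4414 to 6405. Over 120 pairs of libraries, 2 to 18 cell barcodes were shared, and 861 barcodes stood in more than 1 library among 37453 cells. Aire itself had 0, 2, 1 and 0 UMIs in the CD45 tumor libraries, in the order of Aire+/+ mice with isotype and with anti-PD1, then Aire-/- mice with each, and 6, 3, 1 and 0 in the CD8 tumor libraries. It had 2, 5, 4 and 0 UMIs in the CD45 spleen libraries and 0 in each CD8 spleen library. These are too few UMIs to check the genotype labels.

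Levels are given as UMIs of a gene per 1000000 UMIs of the same cells (CPM), with exact Poisson 95% intervals, and ratios between libraries have conditional exact intervals; all intervals cover counting error only. Cells were gated on UMIs of lineage genes, none of them among the 5 genes. The CD8 T gate asked for Cd3 and Cd8 UMIs and no UMI of the NK receptors Ncr1 and Klrb1c, and the NK gate asked for an NK receptor UMI and no Cd3 or Cd8 UMI. Genes outside the gates checked them. In NK-gated cells Klre1, an NK receptor, was found in 84.6 to 87.7% of cells in tumors and 81.2 to 93.8% in spleens, and Cd5, a T cell gene, in 0%. In CD8 T-gated cells of the CD8 sort Cd5 was found in 47.3 to 63.5% of cells and Klra8, an NK receptor, in at most 0.356%. Klre1 was found in 1.96 to 5.8% of CD8 T-gated cells in spleens but in 42.7 to 57.7% in tumors, so it did not set these cells apart from NK cells there. C1qa, a macrophage gene, was found in 2.53 to 5.87% of tumor CD8 T-gated cells. Lef1, a factor of naive T cells, was found in 85.2 to 89.8% of splenic and 11.3 to 15.3% of tumor CD8 T-gated cells.

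In whole libraries Gzma stood at 203, 280.3, 601 and 1448 CPM in the CD45 tumor sort, in the order of Aire+/+ mice with isotype and with anti-PD1, then Aire-/- mice with each; values listed for 4 libraries keep this order throughout. In the CD8 tumor sort its levels were 366, 518, 957 and 1206 CPM. In both sorts of the tumor the Aire-/- libraries were higher than the Aire+/+ libraries. In the CD45 spleen sort Gzma was at 393, 245, 359.9 and 381 CPM, with the genotypes overlapping, and in the CD8 spleen sort at 79.3, 78.9, 553 and 443 CPM, with both Aire-/- libraries far above both Aire+/+ libraries. Over the 16 whole libraries Gzmk ranged from 1.65 to 121 CPM, Gzmm from 0.539 to 29.4, Klrg1 from 3.83 to 37.5 and Ccl5 from 683 to 3812 CPM. In the CD45 spleen libraries NK-gated cells gave 74.5 to 93.8% of all Gzma UMIs. In the CD45 tumor libraries they gave 76.4, 79.5, 78.1 and 58.7%. They numbered 104, 123, 148 and 235 of 2930, 2208, 1856 and 2075 cells there, so the cell mix differed between these libraries.

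Among cell types of the CD45-sorted tumors, Gzma was highest in NK-gated cells, with a median over libraries of 5224 (4081 to 6330.2) CPM (range in parentheses). T cells with an NK receptor UMI followed at 1942 (562 to 2775) and CD8 T-gated cells at 557 (149 to 1159.8) CPM. The range of NK cells lay above both, the ranges of these T cell gates overlapped each other, and the medians of CD4 T, regulatory T, macrophage, monocyte and mature dendritic gates were all under 1 CPM.

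Gzmk had another order: CD8 T-gated cells were highest at 86.2 (39.7 to 118) CPM, overlapping with the CD4 T gate at 21.4 (4.45 to 147), which reached 20 cells in 3 libraries. T cells with an NK receptor were at 10.5 (6.87 to 24.7) and NK-gated cells at 4.78 (2.74 to 11) CPM, both below the range of CD8 T-gated cells. Regulatory T cells were at 1.31 (0 to 1.66) CPM. Macrophage, monocyte and mature dendritic gates had 0 Gzmk UMIs; in macrophages this allows up to 0.167 to 1.2 CPM (3 UMIs) in a library. Gzmm was low throughout the tumor, at 5.26 (0.805 to 6.12) CPM in CD8 T-gated and 5.13 (4.46 to 6.19) in NK-gated cells, whose ranges overlapped.

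Klrg1 was highest in regulatory T-gated cells of the tumor, at 407 (326 to 491) CPM. CD4 T-gated cells followed at 124 (103 to 290.0) in 3 libraries and NK-gated cells at 51.3 (17.8 to 73.5) CPM, and these 3 ranges did not overlap. CD8 T-gated cells were at 13.3 (5.23 to 61.8) and T cells with an NK receptor at 17.5 (1.72 to 47.1) CPM, both overlapping with NK cells. The overlap of CD8 T-gated cells rested on cells with a Foxp3 or Cd4 UMI. Without them, an alternative chosen after seeing the data, CD8 T-gated cells were at 3.15, 6.11, 2.12 and 2.89 CPM, below the range of NK cells. Regulatory T-gated cells gave 35.8 to 68.7% of all Klrg1 UMIs of a tumor library, although they numbered 131, 81, 37 and 71 cells. NK-gated cells gave 7.78, 4.76, 29.2 and 42.2%, more than regulatory T-gated cells in the Aire-/- anti-PD1 library.

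Ccl5 was found in all 8 gates of the tumor. Mature dendritic-gated cells (Fscn1 and Ccr7 positive) were highest, at 6411 (5679 to 8014) CPM, above the range of every other gate. NK-gated cells were at 2969 (1930.1 to 3765), CD8 T-gated cells at 2245 (1382 to 4537) and T cells with an NK receptor at 1906 (910.1 to 2443) CPM, with overlapping ranges. Macrophages followed at 801 (384 to 1728), CD4 T cells at 663 (62.2 to 992), monocytes at 595 (346 to 782) and regulatory T cells at 384 (264 to 1120.1) CPM, each overlapping with its neighbours in this order. Macrophages gave 6.83 to 29.2% and CD8 T-gated cells 8.24 to 52.4% of a tumor library's Ccl5 UMIs.

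**Figure D1:**
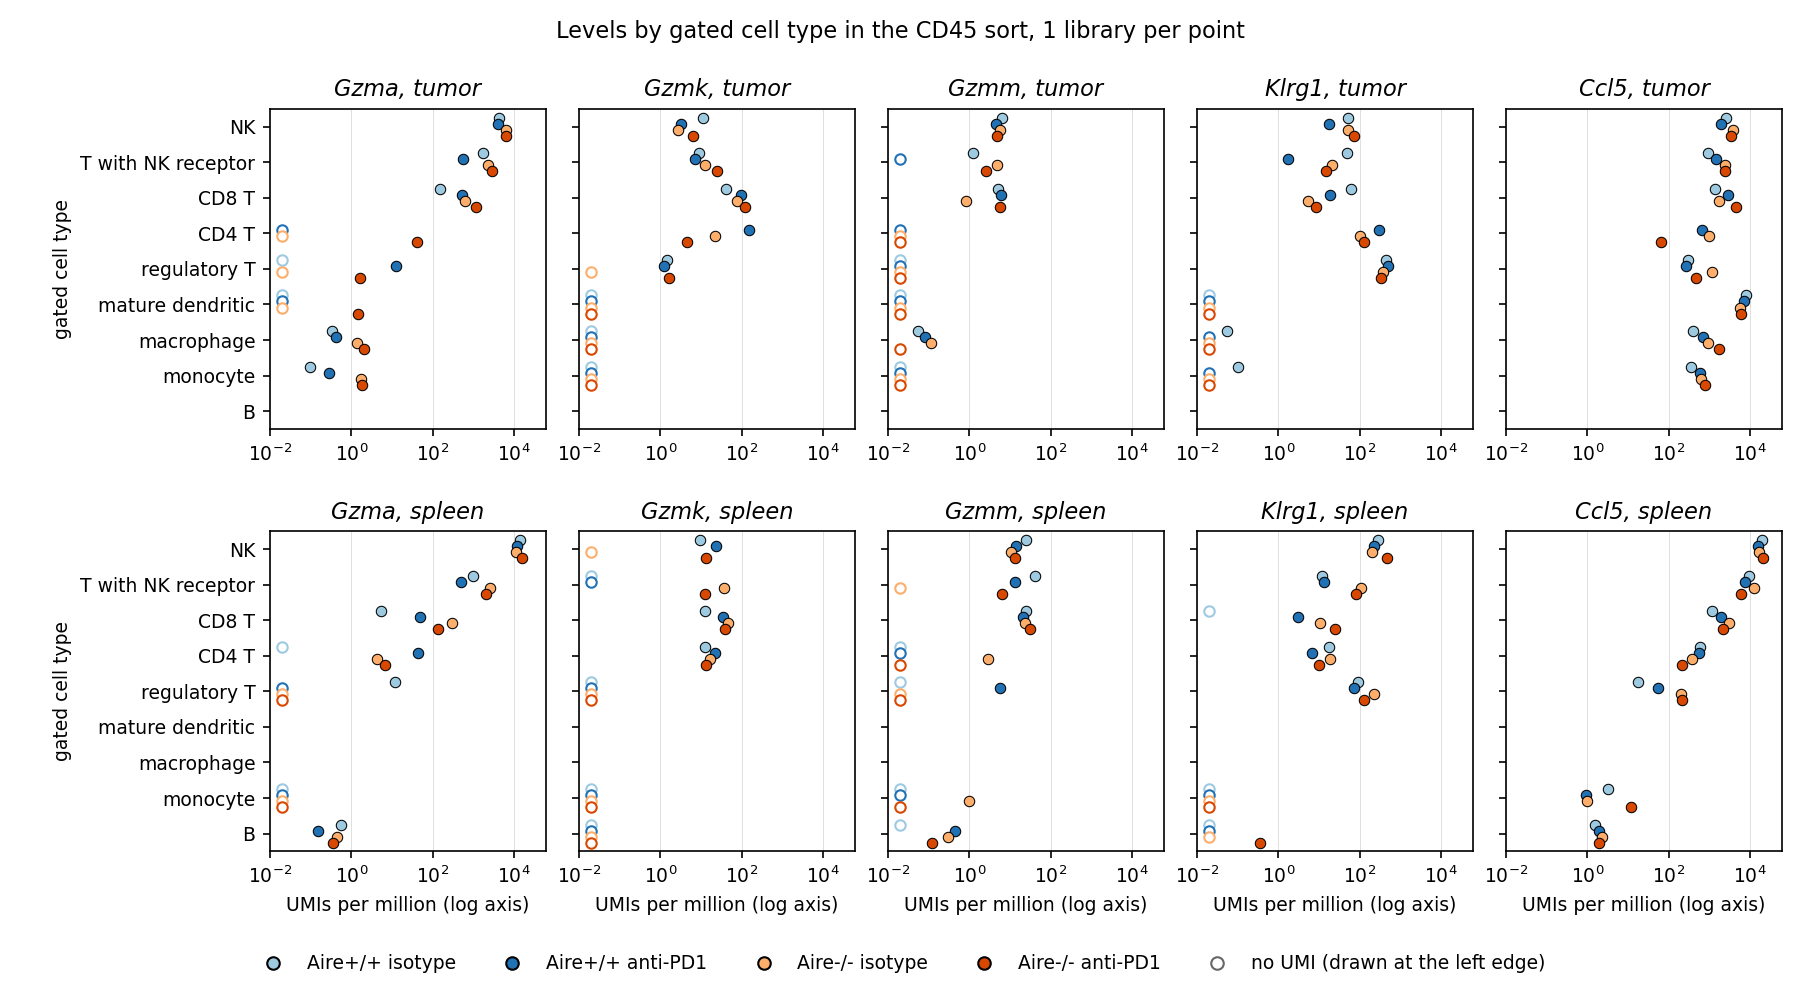
CPM on a log axis (horizontal) of each gene in each gated cell type (vertical) of the CD45 sort, 1 point per library, tumors above and spleens below; open points at the left edge had no UMI, and gates under 20 cells are not drawn. Tumor Gzma is highest in NK-gated cells (4081 to 6330.2 CPM) and tumor Klrg1 in regulatory T-gated cells.

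In the CD45-sorted spleens Gzma, Klrg1 and Ccl5 were all highest in NK-gated cells. Gzma was at 12588 (10819.8 to 15803) CPM in NK-gated cells, 1477 (485 to 2496) in T cells with an NK receptor and 91.9 (5.22 to 300.0) in CD8 T-gated cells, with no overlap between these neighbours. Ccl5 had the same 3 gates in the same order, at 17944 (15587 to 20508), 8194 (5884 to 12067) and 2020.4 (1154 to 3027) CPM, with no overlap. Below them, Ccl5 was at 455 (214 to 582) CPM in CD4 T-gated and 129 (17.5 to 211) in regulatory T-gated cells, and monocytes and B cells were near 0, at 2.07 (0.912 to 11.7) and 1.92 (1.57 to 2.24) CPM.

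Klrg1 in the spleen was at 255 (203 to 468) CPM in NK-gated and 107 (71.8 to 219.9) in regulatory T-gated cells, whose ranges overlapped. It was at 13.7 (6.72 to 18.1) CPM in CD4 T-gated and 6.61 (0 to 24.0) in CD8 T-gated cells, both below the range of regulatory T cells. Gzmk was at 36.1 (12.5 to 45.8) CPM in CD8 T-gated, 15.0 (12.4 to 22.4) in CD4 T-gated and 11.2 (0 to 23.2) in NK-gated cells, and Gzmm at 23.7 (20.5 to 31.0) in CD8 T-gated and 13.6 (10.7 to 24.7) in NK-gated cells. For these granzymes CD8 T-gated cells had the highest median, and the ranges overlapped with those of the next gate.

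Set against CD8 T-gated cells of the same tumor library, NK-gated cells had more Gzma and less Gzmk in all 4 conditions. The log2 ratios of Gzma were 4.80 (4.61 to 4.99), 3.0 (2.91 to 3.09), 3.39 (3.31 to 3.47) and 2.44 (2.41 to 2.48), with intervals in parentheses. Those of Gzmk were -1.85 (-2.74 to -1.04), -4.94 (-6.58 to -3.70), -4.76 (-6.40 to -3.52) and -4.21 (-4.93 to -3.58). A gene was called where it was past 2-fold in the same direction in all 4 conditions, with at least 10 UMIs over each pair. 1 member, Gzma, was called higher, beside 2.27% of 9166 genes, and 1, Gzmk, was called lower, beside 3.41%. Klrg1 had log2 ratios of -0.26 (-0.71 to 0.19), -0.04 (-0.80 to 0.70), 3.28 (2.44 to 4.25) and 3.16 (2.75 to 3.60), near 0 in the Aire+/+ and high in the Aire-/- libraries. Ccl5 had 0.90 (0.82 to 0.98), -0.56 (-0.62 to -0.49), 1.19 (1.13 to 1.24) and -0.43 (-0.46 to -0.40), positive with isotype and negative with anti-PD1. Gzmm had 0.29 (-1.25 to 1.87), -0.46 (-2.02 to 0.97), 2.77 (0.54 to 6.00) and -0.20 (-1.16 to 0.69), from 9, 7, 10 and 15 UMIs in NK-gated and 8, 13, 2 and 40 in CD8 T-gated cells, and every interval but that of the Aire-/- isotype library includes 0.

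The Aire+/+ values of Klrg1 moved with cells that have a Foxp3 or Cd4 UMI in the CD8 T gate. Without such cells, an alternative chosen after seeing the data, its log2 ratios in Aire+/+ tumors were 4.03 with isotype and 1.55 with anti-PD1. Klrg1 was then past 2-fold in every tumor, in Aire+/+ as in Aire-/- mice, and would be called higher beside Gzma. With each cell thinned to 2000 UMIs the ratios of Ccl5 with anti-PD1 changed sign, to 0.23 in Aire+/+ and 0.26 in Aire-/- tumors. The Gzmm ratio of Aire+/+ isotype tumors also changed sign. It was -1.49, past 2-fold, without cells above the 98th percentile of UMIs, and -0.44 with each cell weighing the same.

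Other genes of the pathway are given by lists, with counts called in each direction and the median log2 ratio, beside a median over all genes of -0.04. In tumors, NK-gated cells had 4 higher and 0 lower of 17 tested, median log2 0.12 among genes of granule load and release; Gzmc, Gzmd, Gzme and Prf1 (perforin) were the higher ones, Gzmc by 3.96 to 4.54 log2. Of inhibitors of granzymes, Serpinb9 and Serpinb6b were higher (2 higher and 0 lower of 4 tested, median log2 1.47). Among transcription factors of effector cells Eomes was higher, by 3.0 to 3.84 log2, and Prdm1 lower (1 higher and 1 lower of 8 tested, median log2 0.09). Surface and homing genes were lower, including the residency genes Itgae and Cxcr6 (0 higher and 6 lower of 7 tested, median log2 -3.07). Among chemokines near Ccl5 in function, Xcl1 was higher and Ccl3 lower (1 higher and 1 lower of 3 tested, median log2 -0.64), the Ccl5 receptor Ccr1 was lower, and the Klrg1 ligand Cdh1 was not called (0 higher and 0 lower of 1 tested, median log2 0.55).

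In spleens NK-gated cells had far more Gzma, Klrg1 and Ccl5 than CD8 T-gated cells. The log2 ratios of Gzma were 11.37 (10.14 to 12.99), 7.86 (7.46 to 8.30), 5.17 (5.01 to 5.34) and 6.87 (6.65 to 7.10). The Aire+/+ isotype value rests on 5 UMIs in CD8 T-gated cells, and the Aire+/+ anti-PD1 value on 50, of which 1 cell held 43. Klrg1 had 0 UMIs in the CD8 T-gated cells of the Aire+/+ isotype library. With 3 UMIs in place of 0 its log2 ratio was 6.50 there, with a lower interval limit of 6.17. It was 6.27 (4.64 to 8.60), 4.31 (3.36 to 5.39) and 4.28 (3.69 to 4.91) in the others. The 3 genes were called higher, beside 6.77% of 7183 genes, and 0 members were called lower, beside 2.53%. Ccl5 had log2 ratios of 4.08 (3.98 to 4.17), 3.07 (2.98 to 3.15), 2.44 (2.37 to 2.51) and 3.23 (3.17 to 3.30). Gzmk and Gzmm were not called, on 3, 5, 0 and 3 and 8, 3, 3 and 3 UMIs in NK-gated cells. Gzmk had -0.44 (-2.90 to 1.45), -0.56 (-2.27 to 0.80) and -1.52 (-3.85 to 0.11). In the Aire-/- isotype library, with 3 UMIs in place of 0, its log2 ratio was -2.10, with an upper interval limit of -1.74. Gzmm had 0.04 (-1.33 to 1.25), -0.56 (-2.95 to 1.18), -1.13 (-3.50 to 0.59) and -1.23 (-3.56 to 0.42), and every interval includes 0. The median over all genes was 0.38. Scaling without mitochondrial and ribosomal genes moved every ratio by -0.46 to -0.43 in spleens and by 0.01 to 0.03 in tumors. That left the called members on the same side and turned Gzmm in the Aire+/+ isotype spleen to -0.42.

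Of the lists in spleen, granule genes had 7 higher and 0 lower of 12 tested, median log2 1.47, Gzmb, Prf1, Nkg7 and Rab27a among the higher. Inhibitors of granzymes had 3 higher and 0 lower of 4 tested, median log2 4.01, and all 3 chemokines near Ccl5 in function were higher (median 5.81). Transcription factors had 4 higher and 1 lower of 7 tested, median log2 2.91, with Tbx21, Eomes, Zeb2 and Id2 higher and Tcf7 lower. Surface genes had 2 higher and 4 lower of 8 tested, median log2 -0.94, with Cx3cr1 and S1pr5 higher. Of Klrg1 ligands 0 were tested.

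CD8 T-gated cells of the CD8 sort numbered 2412, 2061, 1731 and 2131 in tumors and 2753, 2825, 2260 and 2526 in spleens. Gzma stood at 383, 505, 895 and 1185 CPM in tumors and 63.4, 54.8, 535 and 456 CPM in spleens. Every tumor was above the spleen of its condition, and the gap was narrow in Aire-/- mice, whose spleens were above the Aire+/+ isotype tumor. Gzmk stood at 62.8, 86.9, 72.4 and 125 CPM in tumors and 7.81, 8.14, 44.6 and 43.3 in spleens, with every tumor above every spleen.

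Gzmm went the other way, at 4.70, 3.74, 5.59 and 4.98 CPM in tumors and 29.4, 19.8, 29.8 and 25.9 in spleens: every tumor was below every spleen. Klrg1 stood at 3.92, 7.04, 3.68 and 4.62 CPM in tumors and 2.52, 2.2, 36.4 and 11.2 in spleens, so the Aire-/- spleens were the highest samples. Ccl5 stood at 1509, 2109.9, 1974 and 3930.4 CPM in tumors and 1379, 1176, 2656 and 2473 in spleens, with overlapping ranges and the Aire-/- anti-PD1 tumor highest.

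**Figure D2:**
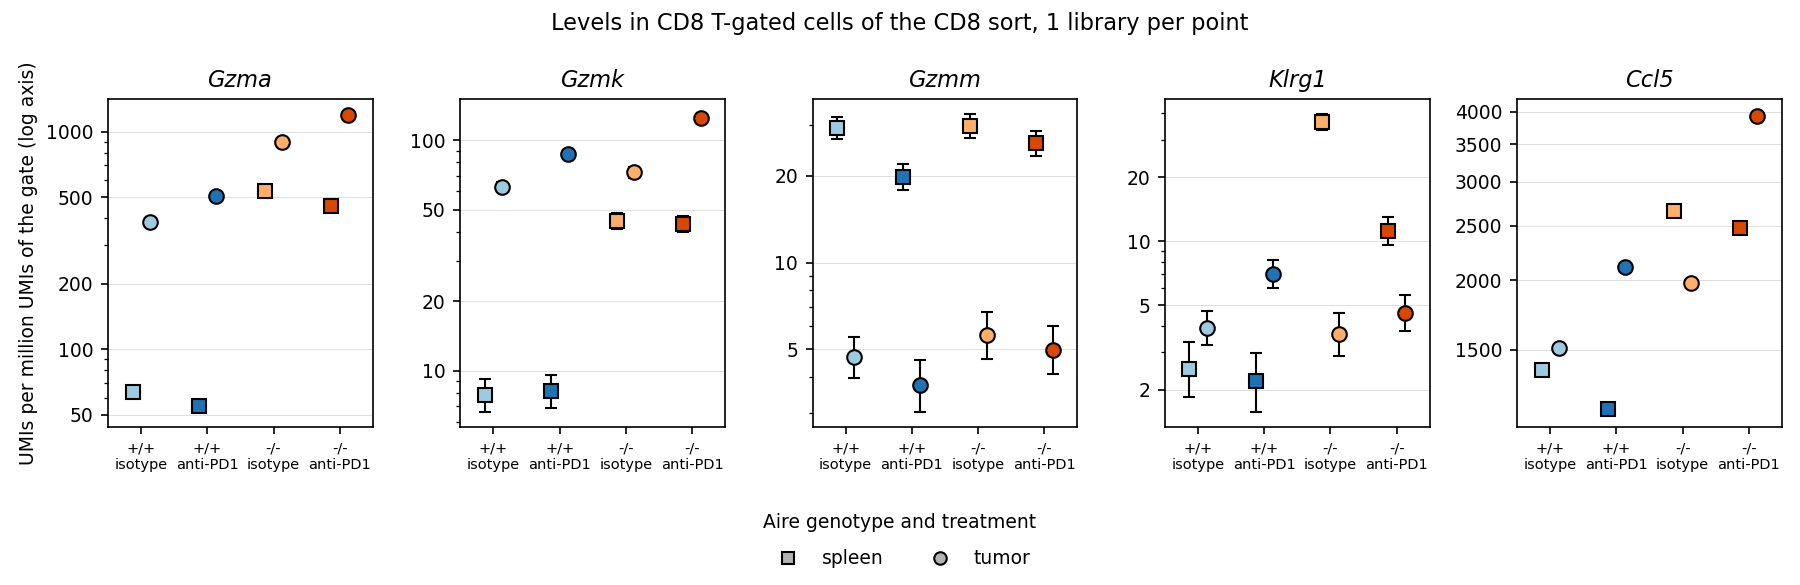
CPM on a log axis (vertical) of each gene in CD8 T-gated cells of the CD8 sort by genotype and treatment (horizontal), 1 library per point, squares for spleen and circles for tumor, bars for exact Poisson 95% intervals of counting error. Splenic Gzma lies at 63.4 and 54.8 CPM in Aire+/+ and at 535 and 456 CPM in Aire-/- mice.

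As log2 ratios of tumor over spleen, Gzma had 2.59 (2.51 to 2.68), 3.20 (3.11 to 3.30), 0.74 (0.70 to 0.78) and 1.38 (1.34 to 1.42). Gzmk had 3.01 (2.76 to 3.26), 3.42 (3.17 to 3.67), 0.70 (0.57 to 0.83) and 1.53 (1.40 to 1.65). Gzma and Gzmk were past 2-fold in 3 of 4 conditions, all but Aire-/- isotype. Gzmm had -2.65 (-2.92 to -2.38), -2.40 (-2.75 to -2.07), -2.42 (-2.73 to -2.12) and -2.38 (-2.70 to -2.07), all negative. Klrg1 had 0.64 (0.15 to 1.16), 1.68 (1.18 to 2.21), -3.31 (-3.67 to -2.96) and -1.28 (-1.64 to -0.92), positive in Aire+/+ and negative in Aire-/- mice. Ccl5 had 0.13 (0.11 to 0.15), 0.84 (0.82 to 0.87), -0.43 (-0.45 to -0.41) and 0.67 (0.65 to 0.69), all under 2-fold. Over all 4 conditions 0 members were called higher, beside 15.1% of 11554 genes, and 1, Gzmm, was called lower, beside 7.45%. With cells thinned to 2000 UMIs the Aire-/- isotype ratio of Gzma was 1.05, which takes Gzma past 2-fold in all 4 conditions. Leaving out cells above the 98th percentile of UMIs took it to 1.31 and that of Gzmk to 1.12, so that both were then past 2-fold in all 4. Ccl5 in Aire+/+ anti-PD1 mice was 1.21 after thinning and 1.21 with each cell weighing the same. Mitochondrial and ribosomal genes took 25.9 to 28.3% of UMIs in tumor and 40.8 to 43.9% in splenic CD8 T-gated cells. Scaling without them moved the all-gene median by -0.40 to -0.32, and turned Ccl5 in Aire+/+ isotype mice to -0.20.

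The other granule genes were mostly higher in tumor CD8 T-gated cells (14 higher and 0 lower of 18 tested, median log2 2.01, against 0.07 over all genes): Gzmb by 5.74 to 8.59 log2, Prf1 by 3.63 to 4.01 and Nkg7 by 1.96 to 2.42. Gzmm, at -2.65 to -2.38, stood opposite to them. All 4 inhibitors of granzymes were higher (median 3.75), as were the 3 chemokines Ccl3, Ccl4 and Xcl1 (median 6.07), the receptor Ccr1 and the Klrg1 ligand Cdh1 (median 4.03). Of the transcription factors, Tbx21, Zeb2, Prdm1 and Id2 were higher and Klf2 and Tcf7 lower (4 higher and 2 lower of 8 tested, median log2 1.49). Of the surface genes, Cx3cr1 and Cxcr6 were higher and S1pr5 and S1pr1, which guide egress from lymphoid organs, were lower.

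In splenic CD8 T-gated cells Gzma, Gzmk and Klrg1 were higher in Aire-/- than in Aire+/+ mice with either antibody. Gzma was 535 (524 to 547) against 63.4 (59.9 to 67.1) CPM with isotype and 456 (446 to 467) against 54.8 (51.5 to 58.3) with anti-PD1. The log2 ratios of Gzma were 3.08 (2.99 to 3.17) and 3.06 (2.96 to 3.15), in this order. Those of Gzmk were 2.51 (2.25 to 2.78) and 2.41 (2.15 to 2.68). For Klrg1 they were 3.85 (3.42 to 4.32) and 2.35 (1.84 to 2.88), from 47 and 40 UMIs in Aire+/+ cells. These 3 of 5 members were called higher, beside 1.9% of 11105 genes, and 0 were called lower, beside 0.153%. The call of Gzmk was not met in the CD45 sort, where its log2 ratio with anti-PD1 was 0.15 (-0.51 to 0.82).

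Ccl5 had log2 ratios of 0.95 (0.92 to 0.97) and 1.07 (1.05 to 1.10), on either side of 2-fold, and Gzmm had 0.02 (-0.16 to 0.21) and 0.39 (0.18 to 0.60). With cells thinned to 2000 UMIs the isotype ratio of Ccl5 was 1.10, past 2-fold with both antibodies, and scaled by the trimmed mean of M values its anti-PD1 ratio was 0.98. In the CD8 T gate of the CD45 sort the Ccl5 ratios were 1.39 (1.29 to 1.49) with isotype but 0.23 (0.14 to 0.31) with anti-PD1.

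The higher splenic Gzma came with more positive cells and more UMIs in each of them. With isotype, 8.36% of Aire-/- and 1.96% of Aire+/+ CD8 T-gated cells had a Gzma UMI, a 4.26-fold difference, and positive cells held means of 42.4 and 21.9 UMIs, 1.93-fold. With anti-PD1 the shares were 6.85% and 1.98%, and the means 41.0 and 17.8 UMIs. Klrg1 with isotype differed 7.05-fold in share, 4.87% against 0.690%. Ccl5 was in 26.6% and 20.9% of these cells. Few cells held much of the splenic Gzma: the 10 cells with the most UMIs gave 77.6, 80.9, 28.7 and 31.8% of the gate's Gzma UMIs.

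Over the lists, Aire-/- spleens had 1 higher and 0 lower of 12 tested, median log2 0.15 among granule genes, Gzmb being the higher one, against 0.04 over all genes. Of the surface genes, Cx3cr1, a receptor of circulating effector cells, had log2 ratios of 2.72 and 1.58 and S1pr5, which guides egress, 2.80 and 1.14, with isotype and anti-PD1 (2 higher and 0 lower of 8 tested, median log2 0.44). The transcription factor Zeb2 was called higher (1 higher and 0 lower of 8 tested, median log2 0.62) and so was the Ccl5 receptor Ccr3, on 1 and 0 UMIs in Aire+/+ cells. Inhibitors of granzymes had 0 higher and 0 lower of 3 tested, median log2 0.47, the chemokines 0 higher and 0 lower of 3 tested, median log2 -0.23 and the Klrg1 ligand Cdh1 0 higher and 0 lower of 1 tested, median log2 0.33.

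In tumor CD8 T-gated cells Gzma was again higher in Aire-/- mice, at 895 (882 to 908) against 383 (376 to 389.7) CPM with isotype and 1185 (1171 to 1199) against 505 (496 to 514) with anti-PD1. The log2 ratios were 1.23 (1.19 to 1.26) and 1.23 (1.2 to 1.26). Gzma was the 1 member called higher, beside 0.631% of 11894 genes, and 0 members were called lower, beside 0.841%. Gzmk had 0.20 (0.11 to 0.30) and 0.52 (0.44 to 0.60), Ccl5 0.39 (0.37 to 0.41) and 0.90 (0.88 to 0.91), all positive and under 2-fold. Gzmm had 0.25 (-0.11 to 0.61) and 0.41 (0.00 to 0.83), from 114 and 110 UMIs in Aire-/- cells. Klrg1 had -0.09 (-0.53 to 0.33) and -0.61 (-0.97 to -0.25), and thinning to 2000 UMIs turned both to 0.75 and 0.12.

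With isotype, 25.0% of Aire-/- and 18.2% of Aire+/+ tumor CD8 T-gated cells had a Gzma UMI, and positive cells held 42.2 and 27.2 UMIs on average. The lists had few calls. Itgae, which encodes the CD103 integrin of resident cells, was higher, with log2 ratios of 1.19 and 1.56 (1 higher and 0 lower of 8 tested, median log2 0.05), and the Ccl5 receptor Ccr3 was higher, on 3 and 1 UMIs in Aire+/+ cells. Granule genes had 0 higher and 0 lower of 18 tested, median log2 0.04, inhibitors 0 higher and 0 lower of 4 tested, median log2 -0.05, chemokines 0 higher and 0 lower of 3 tested, median log2 -0.06, transcription factors 0 higher and 0 lower of 8 tested, median log2 -0.04 and Cdh1 0 higher and 0 lower of 1 tested, median log2 0.38, against -0.02 over all genes.

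None of the 5 genes was called for anti-PD1 against isotype in CD8 T-gated cells of the CD8 sort, in either tissue. In tumors Ccl5 had log2 ratios of 0.48 (0.47 to 0.50) in Aire+/+ and 0.99 (0.98 to 1.01) in Aire-/- mice, and Gzma 0.40 (0.36 to 0.44) and 0.40 (0.38 to 0.43). Gzmk had 0.47 (0.38 to 0.56) and 0.78 (0.69 to 0.88), Klrg1 0.84 (0.50 to 1.19) and 0.33 (-0.11 to 0.78), and Gzmm -0.33 (-0.72 to 0.06) and -0.17 (-0.56 to 0.23). All but Gzmm were positive in both genotypes, Gzmm was negative in both, and 0 members were called in either direction, beside 0.178% higher and 0.279% lower of 11814 genes. Thinning to 2000 UMIs turned Klrg1 in Aire-/- tumors to -0.02.

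In spleens Gzma had -0.21 (-0.33 to -0.09) in Aire+/+ and -0.23 (-0.28 to -0.18) in Aire-/- mice, and Ccl5 -0.23 (-0.26 to -0.20) and -0.10 (-0.12 to -0.08), all negative. Klrg1 had -0.19 (-0.84 to 0.45) and -1.70 (-1.95 to -1.45), the second past 2-fold. Gzmk had 0.06 (-0.28 to 0.40) and -0.04 (-0.20 to 0.11), intervals that include 0, and Gzmm -0.57 (-0.77 to -0.37) and -0.20 (-0.40 to -0.00). Again 0 members were called in either direction, beside 0.236% higher and 0.0725% lower of 11040 genes. With each cell weighing the same, Gzma in Aire+/+ spleens turned to 0.04 and Gzmk to -0.08.

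In tumors no gene of the lists given here was called with anti-PD1. Medians were 0.01 for granule genes, 0.10 for inhibitors, 0.12 for Cdh1, 0.10 for chemokines, -0.03 for transcription factors and 0.08 for surface genes, against 0.02 over all genes. In spleens the chemokine gene Ccl3 was the 1 list gene called, with log2 ratios of 2.63 and 1.07 in Aire+/+ and Aire-/- mice (1 higher and 0 lower of 3 tested, median log2 0.85). The other lists there had 0 calls and medians of 0.02 for granule genes, -0.05 for inhibitors, -0.48 for Cdh1, -0.05 for transcription factors and 0.05 for surface genes, against 0.01 over all genes. The comparisons by genotype and by antibody share libraries.

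In NK-gated cells, the Gzma difference by genotype was under 2-fold. NK-gated cells of tumors had Gzma at 4144, 4081, 6330.2 and 6303 CPM and of spleens at 13804, 11373, 10819.8 and 15803 CPM. In tumors both Aire-/- libraries were above both Aire+/+ libraries, and in spleens the genotypes overlapped. The log2 ratios of Aire-/- over Aire+/+ with isotype and anti-PD1 were 0.61 (0.57 to 0.66) and 0.63 (0.59 to 0.67) in tumors and -0.35 (-0.42 to -0.28) and 0.47 (0.40 to 0.55) in spleens. Ccl5 in NK-gated cells was at 2578, 1930.1, 3765 and 3361 CPM in tumors and 19463, 15587, 16426 and 20508 in spleens, and Klrg1 at 51.6, 17.8, 50.9 and 73.5 and 284, 227, 203 and 468 CPM. All 3 genes were lower in tumor than in splenic NK-gated cells in every condition. By genotype, Klrg1 was past 2-fold with anti-PD1 only. Its log2 ratios of Aire-/- over Aire+/+ with isotype and anti-PD1 were -0.02 (-0.47 to 0.44) and 2.04 (1.48 to 2.67) in tumors. In spleens they were -0.48 (-0.98 to 0.01) and 1.04 (0.54 to 1.56).

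Regulatory T-gated cells of tumors had Klrg1 at 441, 491, 373 and 326 CPM, lower in Aire-/- mice, and those of spleens at 87.6, 71.8, 219.9 and 127 CPM, higher in Aire-/- mice. The log2 ratios of Aire-/- over Aire+/+ were -0.24 (-0.51 to 0.02) and -0.59 (-0.85 to -0.34) in tumors and 1.33 (0.48 to 2.26) and 0.82 (-0.15 to 1.87) in spleens, where these gates held 30, 37, 48 and 55 cells; 2 of these 4 intervals include 0. Ccl5 in tumor regulatory T-gated cells was at 295, 264, 1120.1 and 473 CPM, higher in both Aire-/- libraries.

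Tumor macrophages had Ccl5 at 384, 707, 896 and 1728 CPM, each condition above the one before, with log2 ratios of Aire-/- over Aire+/+ of 1.22 (1.18 to 1.27) and 1.29 (1.24 to 1.34). Anti-PD1 over isotype was 0.88 (0.84 to 0.93) in Aire+/+ and 0.95 (0.89 to 1.0) in Aire-/- macrophages. Tumor monocytes had Ccl5 at 346, 580.4, 611 and 782 CPM, in the same order. Mature dendritic-gated cells had it at 8014, 6888, 5679 and 5934 CPM, lower in the Aire-/- libraries, from 50, 35, 46 and 51 cells.

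The CD8 T gate of the CD45 sort can be set beside that of the CD8 sort. In CD45-sorted tumors Gzma was at 149, 511, 603 and 1159.8 CPM and in CD45-sorted spleens at 5.22, 48.9, 300.0 and 135 CPM, with both Aire-/- libraries above both Aire+/+ libraries in each tissue. The splenic values rest on only 3, 4, 10 and 9 cells with a Gzma UMI. In the Aire+/+ anti-PD1 spleen 1 cell held 43 of the 50 Gzma UMIs. Ccl5 was at 1382, 2837, 1653 and 4537 CPM in the CD45-sorted tumors. Its log2 ratios of anti-PD1 over isotype there, 1.04 (0.97 to 1.11) in Aire+/+ and 1.46 (1.41 to 1.5) in Aire-/- mice, were past 2-fold in both genotypes, unlike in the CD8 sort. Splenic Gzmk of the CD45 sort had log2 ratios of Aire-/- over Aire+/+ of 1.87 (0.94 to 2.92) with isotype and 0.15 (-0.51 to 0.82) with anti-PD1, so that its call in the CD8 sort was not met there. Splenic Klrg1 of Aire-/- mice had 1.22 (0.19 to 2.37) for anti-PD1 over isotype in the CD45 sort, on 31 and 11 UMIs, past 2-fold and opposite in sign to the CD8 sort, but not without the Foxp3-bearing or Cd4-bearing cells (below). Gzma had 3.23 and -1.15 in these Aire+/+ and Aire-/- spleens and 1.78 and 0.94 in the tumors. Tumor over spleen, Gzma of the CD45 sort had 4.83, 3.38, 1.01 and 3.10, past 2-fold in all 4 conditions. Klrg1 was at 61.8, 18.4, 5.23 and 8.22 CPM in CD45-sorted tumors, highest in the Aire+/+ isotype library, unlike in the CD8 sort, with log2 ratios of Aire-/- over Aire+/+ of -3.56 and -1.16. In that gate the share of cells with a UMI of Foxp3, the regulatory T cell factor, was 14.9, 6.34, 3.35 and 2.28%, and those cells held 95.9, 69.2, 61.5 and 53.3% of the gate's Klrg1 UMIs. Without cells bearing a Foxp3 or Cd4 UMI, Klrg1 was at 3.15, 6.11, 2.12 and 2.89 CPM in the CD45-sorted tumors and 3.28, 6.83, 3.69 and 4.71 in the CD8-sorted tumors, of a like size. In CD8-sorted spleens it was then at 2.54, 2.22, 36.6 and 10.9 CPM, still highest in Aire-/- mice. In CD45-sorted spleens it was then at 0, 3.19, 10.0 and 7.69 CPM, so that Aire-/- mice no longer had more with anti-PD1 than with isotype, on few UMIs and with overlapping intervals.

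Shares of cells depend on depth, so each cell was also thinned to 2000 UMIs. In tumor CD8 T-gated cells of the CD8 sort 12.1, 13.9, 19.3 and 24.4% then had a Gzma UMI (18.2, 20.4, 25.0 and 30.1% unthinned), and in spleens 1.38, 1.40, 7.61 and 5.90% (1.96, 1.98, 8.36 and 6.85% unthinned). Thinning left out 0, 0, 0 and 0 tumor and 0, 30, 14 and 19 splenic cells. Aire-/- mice had the larger shares in both tissues; the Clopper-Pearson intervals in spleens were 0.979 to 1.89, 0.994 to 1.90, 6.55 to 8.79 and 5.01 to 6.90%. Gzmk was in 9.78, 10.7, 11.3 and 18.7% of tumor and 0.981, 0.680, 4.85 and 3.95% of splenic cells, and Klrg1 in 0.580, 1.07, 1.10 and 1.13% and 0.40, 0.286, 3.56 and 1.56%. Both were in larger shares of Aire-/- than Aire+/+ splenic cells.

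Gzmm was in 1.2, 0.679, 1.33 and 0.985% of tumor and 3.16, 1.72, 3.61 and 3.27% of splenic cells, and Ccl5 in 40.3, 51.8, 45.3 and 64.6% and 16.2, 14.9, 21.5 and 21.2%, thinned. B-gated cells of the CD45-sorted spleens, which should lack these genes, had Gzma in 0 to 0.12%, Gzmk in 0%, Gzmm in 0 to 0.154%, Klrg1 in 0 to 0.060% and Ccl5 in 0.146 to 0.368% of thinned cells. Median depths were 4166 to 4461 UMIs in B-gated, 5785 to 6381 in splenic CD8 T-gated and 8730.0 to 10899.5 in tumor CD8 T-gated cells. Each CD8 T share of these 5 genes was larger, but B-gated cells of the CD45 sort do not measure the free RNA of the CD8-sorted spleens and tumors. In tumor regulatory T-gated cells Klrg1 was in 47.3, 46.9, 43.2 and 29.6% of thinned cells.

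Gzmk, Klrg1 and Ccl5 were found more often in Gzma-positive than in Gzma-negative CD8 T-gated cells of every library of the CD8 sort. Among thinned splenic CD8 T-gated cells with a Gzma UMI, 18.4, 15.4, 52.0 and 49.3% also had a Gzmk UMI, against 0.737, 0.472, 0.964 and 1.10% of cells without one. For Klrg1 these shares were 21.1, 12.8, 45.6 and 22.3% and 0.110, 0.109, 0.0964 and 0.254%, and for Ccl5 84.2, 79.5, 94.7 and 93.2% and 15.2, 14.0, 15.5 and 16.7%. In every spleen the Gzma-positive cells had the larger share of all 3 genes. Gzmm was in 15.8, 5.13, 10.5 and 9.46% of Gzma-positive and 2.98, 1.67, 3.04 and 2.88% of Gzma-negative cells, with overlapping intervals in Aire+/+ anti-PD1 spleens. Cells with both Gzma and Gzmk numbered 18.8, 22.6, 10.7 and 12.5 times the number that the product of the shares gives in spleens and 3.31, 2.95, 2.84 and 2.08 times in tumors.

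In tumors 32.4, 31.5, 32.0 and 38.8% of Gzma-positive and 6.65, 7.32, 6.30 and 12.2% of Gzma-negative cells had a Gzmk UMI. Ccl5 was in 84.0, 86.0, 85.6 and 88.1% and 34.3, 46.3, 35.6 and 57.0%, and Klrg1 in 2.39, 4.90, 4.49 and 3.46% and 0.33, 0.451, 0.286 and 0.372%. The Gzma-positive cells had the larger share of all 3 in every tumor, while Gzmm, at 2.05, 1.40, 0.599 and 1.54% and 1.09, 0.563, 1.5 and 0.807%, had overlapping intervals in every tumor, and the difference was not tested. All cells were thinned to the same depth.

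**Figure D3:**
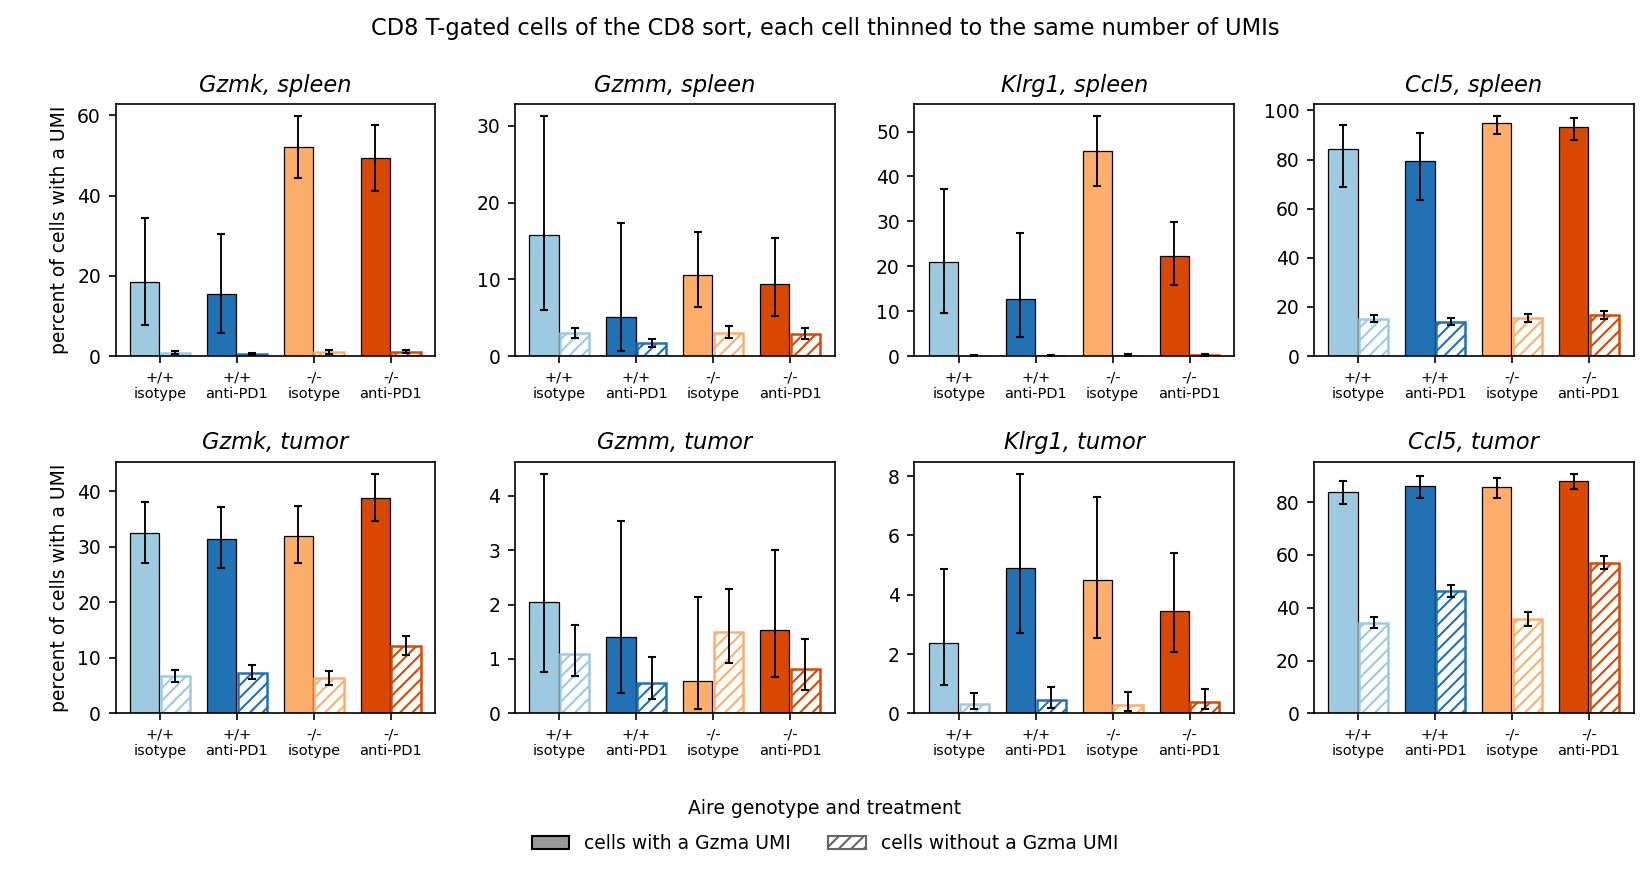
Percent of CD8 T-gated cells of the CD8 sort with a UMI of each gene (vertical, from 0) by genotype and treatment (horizontal), for cells with (filled bars) and without (hatched bars) a Gzma UMI after thinning, with exact Clopper-Pearson 95% intervals; spleens above, tumors below. In Aire-/- isotype spleens 52.0% of Gzma-positive and 0.964% of Gzma-negative cells had a Gzmk UMI.

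Unthinned Gzma-positive CD8 T-gated cells of spleens, 54, 56, 189 and 173 cells, differed from the 2699, 2769, 2071 and 2353 negative ones in other genes of the lists. Zeb2, a factor of terminal effector cells, was at 55.8, 70.4, 158 and 70.3 CPM in positive and 1.69, 1.63, 1.17 and 1.46 in negative cells. Cx3cr1 was at 129, 194, 317 and 213 against 1.80, 2.47, 2.56 and 2.64 CPM, and S1pr5 at 60.9, 76.3, 233 and 74.7 against 1.97, 1.96, 2.56 and 2.08 CPM. All 3 were higher in the positive cells of every spleen. Tcf7, a factor of naive and memory cells, went the other way, at 129, 126, 76.1 and 67.6 against 327, 326, 318 and 341 CPM. Gzmb, which encodes granzyme B, was at 546, 364, 841 and 723 against 14.0, 2.63, 6.06 and 12 CPM, and Tbx21 at 180.2, 117, 261 and 228 against 15.6, 15.1, 19.1 and 18.4 CPM, both higher in positive cells.

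In tumors Itgae was at 54.8, 88.0, 117 and 174 CPM in Gzma-positive and 11.9, 17.4, 22.9 and 56.0 in Gzma-negative CD8 T-gated cells, higher in the positive cells of every tumor. Gzmf, another granzyme gene, was at 848, 1732, 2565 and 1388 against 3531, 3562, 4493 and 3504 CPM, lower in the positive cells.

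Over 75 gate-by-library profiles, the genes with the most similar log2(CPM + 1) pattern among 6318 candidates were as follows. For Gzma they were Klre1 (r = 0.93), Dapk2 (r = 0.92) and Eomes (r = 0.91), for Gzmk Hid1 (r = 0.78) and Cd226 (r = 0.76), and for Gzmm Ifitm10 (r = 0.80), Hid1 (r = 0.79) and Dnajc15 (r = 0.78). Klrg1 was most like Gata3 (r = 0.81), Sytl2 (r = 0.81) and Rab37 (r = 0.79), and Ccl5 most like Peak1 (r = 0.77), Klrk1 (r = 0.77) and AW112010 (r = 0.75). The profiles share libraries and cell types, so r describes likeness of pattern across them.

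On the mouse genome (GRCm38.p6, RefSeq) Gzma lies at chr13:113093824-113100981 (minus strand) and Gzmk at chr13:113171630-113180965 (minus strand), 70648 bases apart with 1 annotated gene, 1700084D21Rik, between them. Gzmm lies at chr10:79689020-79695261 (plus strand), Klrg1 at chr6:122270596-122282833 (minus strand) and Ccl5 at chr11:83525778-83530518 (minus strand).

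RefSeq promoter windows of 300 bases on GRCm38.p6 matched 3 of the 5 genes, Gzma, Gzmk and Gzmm (2 entries), and not Klrg1 or Ccl5. Both strands were searched for a T-box core (GGTGTGA), a RUNX core (TGTGGT) and an AP-1 core (TGANTCA), motifs of factor families active in effector lymphocytes. Of 32851 promoters of the same length, 3.98% held the T-box core, 16.8% the RUNX core and 7.81% the AP-1 core. The windows of the neighbours Gzma and Gzmk and the first window of Gzmm are shown with matches in capitals. Gzma and Gzmk were both called higher in Aire-/- spleens of the CD8 sort, and Gzmm was not called there. Gzma (chr13:113100932-113101231, minus strand) and Gzmm (chr10:79688770-79689069, plus strand) held a RUNX core on the reverse strand. Gzmk (chr13:113180916-113181215, minus strand) held a T-box core on the forward strand. The second Gzmm window (chr10:79693576-79693875, plus strand) held a T-box core on the forward strand. A match describes the letters only.
Gzma: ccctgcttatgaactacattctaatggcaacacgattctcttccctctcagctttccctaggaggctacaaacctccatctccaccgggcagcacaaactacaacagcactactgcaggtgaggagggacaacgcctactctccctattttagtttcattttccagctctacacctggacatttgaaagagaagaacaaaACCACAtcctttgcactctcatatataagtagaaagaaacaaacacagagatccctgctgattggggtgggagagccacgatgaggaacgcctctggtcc
Gzmk: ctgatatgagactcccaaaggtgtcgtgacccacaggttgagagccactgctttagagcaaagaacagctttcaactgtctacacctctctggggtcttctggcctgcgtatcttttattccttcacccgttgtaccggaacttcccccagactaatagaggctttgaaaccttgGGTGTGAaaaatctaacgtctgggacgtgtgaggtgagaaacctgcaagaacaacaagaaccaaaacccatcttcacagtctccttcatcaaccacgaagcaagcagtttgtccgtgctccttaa
Gzmm: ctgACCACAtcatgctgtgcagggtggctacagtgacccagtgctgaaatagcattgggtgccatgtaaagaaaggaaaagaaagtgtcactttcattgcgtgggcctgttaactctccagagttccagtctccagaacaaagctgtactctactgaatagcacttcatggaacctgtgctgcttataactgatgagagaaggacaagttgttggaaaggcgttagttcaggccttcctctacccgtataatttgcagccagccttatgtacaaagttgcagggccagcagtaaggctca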

How the data were processed

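Droplet single-cell RNA-seq of 16 libraries was used as the deposited tables of counts (UMIs per gene and cell), which the authors made from the reads. Rows were summed to gene symbols (24469), and cells with under 200 genes or over 20% mitochondrial UMIs were left out. Cells were gated by lineage UMIs, UMIs were summed per gate and library and scaled to 1000000 (CPM), and gates under 20 cells gave no value. With 1 library per group no test was run: ratios carry exact 95% intervals of counting error, shares carry Clopper-Pearson intervals, and a gene was called when it had at least 10 UMIs over a pair and was past 2-fold in every pair of a comparison. A bound or ratio against 0 UMIs uses 3 UMIs. Cells were thinned to 2000 UMIs without replacement (seed 1), and shallower cells left out. Some genes of the lists below, the counts of the Ccl5 receptors and 1 gene like Gzmk are not reported here. The members and lists were chosen with earlier results of these data known. Named genes were the 5 members, the genes of 7 lists (granule load and release, granzyme inhibitors, Klrg1 ligands, Ccl5 receptors, neighbouring chemokines, transcription factors, surface and homing genes), and the 3 genes per member with the highest Pearson correlation over profiles, at 50 CPM or more in at least 1. Alternatives covered the cell filter, cell weighting, thinning (1000 UMIs for shares), scaling without mitochondrial and ribosomal genes or by trimmed mean of M values, deep cells above the 98th percentile left out, and the gates. No doublet caller was run, so doublets were kept, and their part in the shares of cells with UMIs of several genes was not tested. Vector rows were left out. Genome positions and promoters come from RefSeq. Python 3.11.15, numpy 2.4.6, scipy 1.17.1, pandas 2.3.3 and matplotlib 3.10.9 were used.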

Additional observations from a re-analysis of the deposited data

Results flagged for a closer look

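In CD8 T-gated cells of the CD8 sort, some log2 ratios had opposite signs in tumor and spleen; none of these differences was tested. Klrg1 in Aire-/- over Aire+/+ mice with anti-PD1 was -0.61 in tumors and 2.35 in spleens, a difference (tumor minus spleen) of -2.96. With cells thinned to 2000 UMIs the tumor value was 0.12, so that the signs were no longer opposite. Gzma with anti-PD1 over isotype was 0.40 in tumors and -0.21 in spleens of Aire+/+ mice, a difference of 0.61, and 0.40 and -0.23 in Aire-/- mice, a difference of 0.64. In Aire+/+ spleens it was 0.04 with each cell weighing the same, and 3.23 in the CD8 T gate of the CD45 sort. The latter came from 5 isotype and 50 anti-PD1 UMIs, and 1 cell held 43 of those 50. Ccl5 with anti-PD1 over isotype was 0.48 and -0.23 in Aire+/+ mice, a difference of 0.71, and 0.99 and -0.10 in Aire-/- mice, a difference of 1.10. In the CD45 sort the splenic Ccl5 value of Aire+/+ mice was 0.69, of the same sign as in tumors.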

How the results depend on the processing

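Counts of ratios past 2-fold, with their range over the alternatives, were 13 of 20 (12 to 15) for tumor over spleen, 9 of 20 (8 to 10) for Aire-/- over Aire+/+, 1 of 20 (1 to 2) for anti-PD1 over isotype and 28 of 40 (27 to 30) for NK-gated over CD8 T-gated cells. These counts join both directions and take each pair alone, and a like count over all genes is not given here. They describe only how far the ratios moved between settings, not how strongly the members differed from other genes. With anti-PD1 the count was 2 under 4 settings: with cells thinned to 2000 UMIs (Gzmm in Aire+/+ spleens, -1.06), over all cells of the CD8 sort (Ccl5 in Aire-/- tumors, 1.02), with 2 Cd3 and 2 Cd8 UMIs asked of the gate (the same, 1.0), and without cells with a Foxp3 or Cd4 UMI (Klrg1 in Aire+/+ tumors, 1.06), an alternative chosen after seeing the data. 1 ratio past 2-fold changed sign: Gzmm in NK-gated over CD8 T-gated cells of the Aire-/- isotype spleen, -1.13, was 0.55 after thinning, on few UMIs. The cause was not tested. In NK over CD8 T, thinning gave 35 and equal weights 38 of 40 ratios, the rest lacking UMIs. No paired analysis was possible over replicates because each group had 1 library. NK over CD8 T ratios pair gates of a library and tumor over spleen ratios pair libraries of a condition. These ratios are given separately, as conditions are not replicates.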
